A study of Mus musculus with 13 samples.

Results

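The liver X receptors and the genes through which cells sense, export and store sterols were examined in liver RNA of mice with altered SIRT1. The set has 10 genes: the receptors Nr1h3 and Nr1h2, the transporters Abca1, Abcg1, Abcg5 and Abcg8, and Scarb1, Lcat, Mylip and Npc1. Probes were taken whose gene name on the array was one of these symbols or an older synonym, which gave 13 probes out of 41174. All 10 genes were among the 20403 genes tested.

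All 13 animals were male, on a C57BL/6 background, and ate a high fat diet of the western style for 5 months, and each array held 1 mouse. Wild-type mice (WT, n = 5) were compared with mice of the SIRT1 TA KI allele (TAKI, n = 5) and mice of the SIRT1 TE KI allele (TEKI, n = 3). In TAKI a threonine of SIRT1 (T522) is replaced by alanine and in TEKI by glutamate, and the comparisons ask how each substitution affects hepatic transcripts on this diet. All 3 groups shared the diet, the labels name the alleles without their zygosity, and the arrays measure the amount of a transcript without testing for the substitution.

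LXR alpha (Nr1h3) and LXR beta (Nr1h2) are nuclear receptors that bind oxysterols and act on DNA together with a retinoid X receptor. When sterols accumulate they turn on genes that move cholesterol out of cells, to HDL and into bile, and genes of fatty acid synthesis. SIRT1 is an NAD-dependent deacetylase, and the LXRs are among its known substrates.

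No member gene differed past the threshold between any genotypes. Levels are log2 intensities minus the array's 75th percentile, and a gene was called at a Benjamini-Hochberg adjusted p under 0.05 in limma, over all genes tested. For TAKI minus WT, 0 of the 10 members were called, against 2.77% of all genes (1.88% higher and 0.887% lower). For TEKI minus WT the share over all genes was 0.00490%, and for TEKI minus TAKI it was 3.40% (2.46% higher and 0.946% lower), again with 0 members called in each. At an unadjusted p under 0.05 the limma fit gave 1 member, Mylip, for TAKI minus WT, against 14.4% of all genes. It gave 0 members in the other 2 comparisons, against 11.4% of all genes for TEKI minus WT and 11.9% for TEKI minus TAKI. No member separated the groups fully in any comparison, while 7.39% of all genes did between TAKI and WT, 3.66% between TEKI and WT and 8.23% between the knock-ins. Both knock-ins were set against the same WT mice, and all 3 comparisons share groups.

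The arrays lay on 5 slides. TAKI shared a slide with no other genotype, and its differences cannot be told apart from differences between slides, while WT replicate 5 was the only WT array on the slide of the TEKI arrays. Of the 384 genes called higher in TAKI than in WT, 376 had their probe in rows 1 to 266 of the 532 array rows, while 179 of the 181 called lower lay in rows 267 to 532. Calls between the knock-ins were split by row too. For TEKI minus TAKI, 485 of the 501 higher calls came from probes placed in rows 267 to 532. Of the 193 lower calls, 191 came from probes placed in rows 1 to 266. Of the members, 8 lie in rows 267 to 532. TEKI replicate 1 had 86.5% of its probes well above background, against 59.8% to 72.6% on the other 12 arrays. Its median log2 intensity was 7.18, against 5.76 to 6.71 on those arrays, while its 75th percentile lay within their range. Centring each array on its median therefore lowers all levels of TEKI replicate 1 against the other arrays, and correlations in that setting hold this shared shift. All 7 tested hepatocyte markers and all 16 markers of macrophages and Kupffer cells were above background on the 13 arrays of this tissue labelled liver. Among markers of other cells, Cd2 of lymphocytes and Cpb1 of pancreatic acinar cells were called higher in TAKI than in WT, and both probes lay in rows 1 to 266. Their part in the members' levels was not tested. In whole liver RNA, fewer cells of a type and less RNA per cell cannot be told apart.

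**Figure D1:**
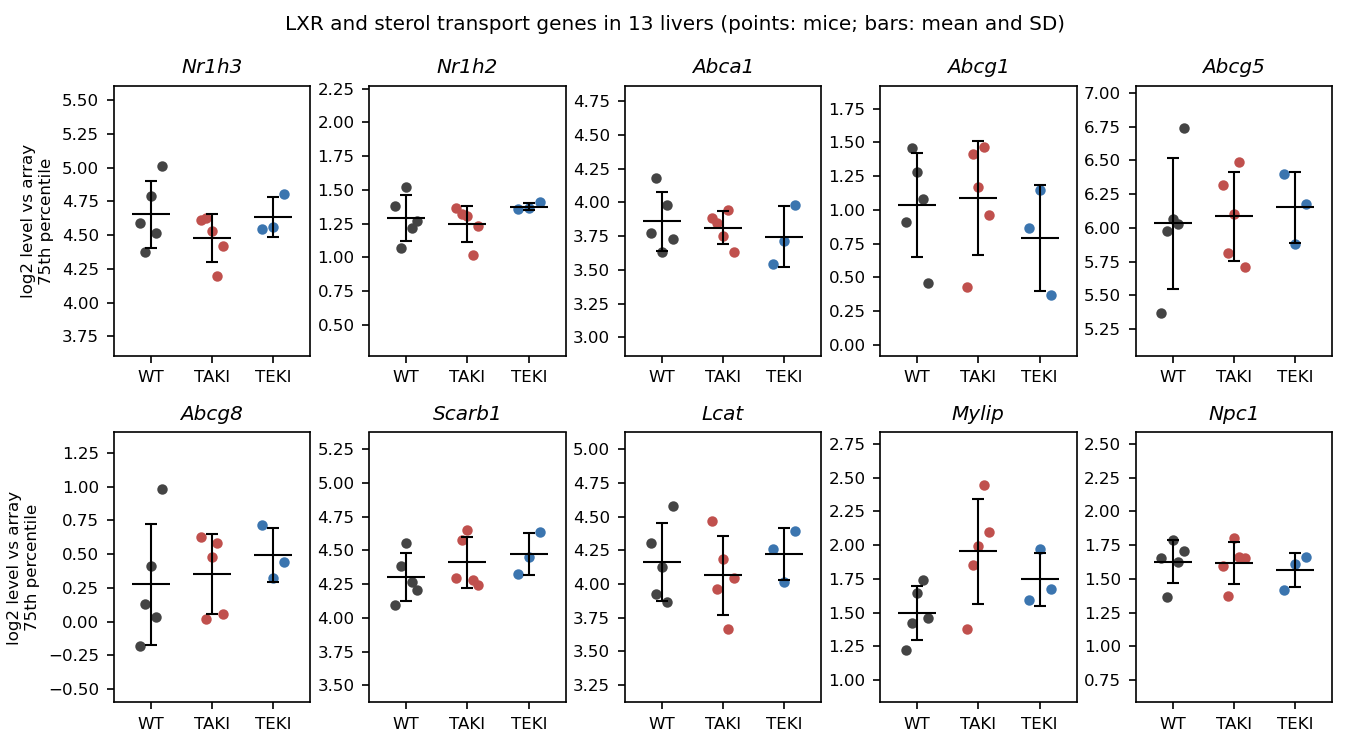
Log2 level of each of the 10 genes in each of the 13 livers, as log2 intensity minus the array's 75th percentile. Each panel covers the same span of log2 units, so that the spread can be compared between genes while the height of a level cannot. Points are mice and bars are the mean and SD of WT (n = 5), TAKI (n = 5) and TEKI (n = 3), and the groups overlap in every panel.

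Neither receptor differed past the threshold between genotypes. Nr1h3 was measured by a probe at chr2:91034994-91035053 (mm7, minus strand). Its level was 4.59, 4.37, 4.79, 4.52 and 5.01 in WT replicates 1 to 5, 4.61, 4.63, 4.53, 4.20 and 4.42 in TAKI, and 4.54, 4.56 and 4.81 in TEKI. The highest liver was WT replicate 5 and the lowest TAKI replicate 4, and the groups overlapped. The TAKI minus WT difference was -0.18 ± 0.13 (SE, 95% interval -0.47 to 0.11, limma adjusted p = 0.623), with 0 of 5 TAKI livers above the WT mean. For TEKI minus WT it was -0.02 ± 0.15 (SE, limma adjusted p = 0.980). Nr1h2, read at chr7:40724452-40724511 (minus strand), lay between 1.07 and 1.52 in WT livers, 1.02 and 1.36 in TAKI livers and 1.36 and 1.41 in TEKI livers. Its TAKI minus WT difference was -0.04, with a 95% interval of -0.26 to 0.18, and its TEKI minus WT difference was 0.08, with an interval of -0.17 to 0.34. The spread between mice of a genotype was 0.138 for Nr1h2, which is smaller than that of most genes: 17.0% of 15510 genes above background on all arrays had a smaller one.

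Neither transporter that loads HDL differed past the threshold, and the spread between mice of a genotype was 0.188 for Abca1 and 0.40 for Abcg1. Abca1 moves cholesterol and phospholipid out of cells onto lipid-poor apolipoprotein A-I and is a classical LXR target. Its level was 3.77, 4.18, 3.63, 3.98 and 3.73 in WT, 3.89, 3.85, 3.75, 3.94 and 3.63 in TAKI, and 3.54, 3.71 and 3.98 in TEKI (probe at chr4:53044891-53044950, minus strand). The groups overlapped over most of their range, and the highest liver was WT replicate 2. The differences were -0.05 ± 0.12 (SE) for TAKI minus WT and -0.11 ± 0.14 (SE) for TEKI minus WT. On the linear scale the 95% interval of TAKI over WT ran from 0.801-fold to 1.17-fold, and that of TEKI over WT from 0.744-fold to 1.15-fold.

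Abcg1 passes cholesterol on to HDL particles that already carry lipid and is prominent in macrophages. Its level was 0.91, 1.46, 1.28, 1.08 and 0.46 in WT, 0.43, 1.42, 1.17, 1.47 and 0.96 in TAKI, and 0.86, 1.15 and 0.37 in TEKI (probe at chr17:29310847-29310906, plus strand). In each genotype 1 liver lay well below the others: WT replicate 5, TAKI replicate 1 and TEKI replicate 3. The highest liver was 2.14-fold above the lowest. The TEKI minus WT difference was -0.24 ± 0.28 (SE, 95% interval -0.85 to 0.36, limma adjusted p = 0.791), and the TAKI minus WT difference was 0.05 ± 0.24 (SE).

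Abcg5 and Abcg8 form an obligate heterodimer that secretes cholesterol and plant sterols into bile, and their genes stand head to head on chromosome 17. In RefSeq (GRCm38.p6), their starts at 84683011 (Abcg5, minus strand) and 84683121 (Abcg8, plus strand) are 110 bases apart. The segment between those starts, chr17:84683012-84683120, is printed on the plus strand because the transcripts on either side of it varied together. RefSeq also holds an Abcg8 start at 84676302 on the plus strand, which lies outside this segment. Capitals mark each match to AGATAA, a core that GATA factors bind, which here lies on the minus strand.
Abcg5-Abcg8 segment: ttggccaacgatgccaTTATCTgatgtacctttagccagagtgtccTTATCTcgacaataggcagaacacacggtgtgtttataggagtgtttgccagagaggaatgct
The matches begin at positions 17 and 47 of the 109 bases. On either strand, AGATAA occurs in 4.33% of segments of this length taken from all RefSeq promoter windows. TATAAA was found once, at position 79 on the minus strand, and in 4.52% of such segments. No match was found for GGGCGG, nor for TGATAA, nor for CCAAT, nor for the HNF1 motif. AGGTCA, the core element that LXR and other nuclear receptors bind, was not found in it either, nor was its direct repeat known as DR4. Of segments of this length, 6.32% hold AGGTCA and 0.0122% hold DR4 as searched, so a lack of either is the usual outcome. Over the 9 promoter windows at hand for 7 of the members, AGGTCA was found in 0, against 16.3% of the 32851 windows in RefSeq. These windows cover only the bases next to a start, and a match or its lack describes letters only.

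Abcg5 had a level of 5.37, 5.97, 6.06, 6.03 and 6.74 in WT, 6.32, 5.81, 6.10, 6.49 and 5.71 in TAKI, and 6.40, 5.88 and 6.18 in TEKI (probe at chr17:82952711-82952770 in mm7, minus strand). Abcg8 had -0.18, 0.13, 0.41, 0.03 and 0.98 in WT, 0.63, 0.02, 0.48, 0.58 and 0.06 in TAKI, and 0.71, 0.33 and 0.44 in TEKI (probe at chr17:82994253-82994312, plus strand). WT replicate 1 was the lowest liver for both genes and WT replicate 5 the highest, so WT spanned the other groups. The TAKI minus WT difference was 0.05 ± 0.23 (SE, 95% interval -0.46 to 0.56) for Abcg5 and 0.08 ± 0.21 (SE, -0.39 to 0.54) for Abcg8. The TEKI minus WT differences were 0.12 ± 0.27 and 0.22 ± 0.25 (SE). The spread of Abcg5 within a genotype was larger than that of most genes, with 77.2% of 15510 genes below it, and Abcg8 was at 72.9%.

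The levels of Abcg5 and Abcg8 followed each other from liver to liver. Pearson's r over the 13 livers was 0.929 (permutation p = 1e-05, the smallest that 100000 resamples can give, and 4e-05 after adjustment over 4 planned pairs). Spearman's rho was 0.929 (permutation p = 2e-05, adjusted 8e-05). The planned pairs were chosen with earlier results of these data known, which the adjustment does not cover. With genotype means removed r was 0.935, with slide means removed it was 0.926, and without WT replicates 1 and 5 it was 0.858 (permutation p = 0.00076). The other Abcg8 probe, at chr17:82989909-82989968, ran with the tested one at r = 0.894 across the livers. By likeness of their deviations from the genotype means, Abcg8 ranked first for Abcg5 among 13238 genes. It was followed by Gch1, which makes a cofactor of amino acid hydroxylases (r = 0.932), and by Inmt, an N-methyltransferase (r = 0.919). For Abcg8 the first were Rmdn2, Spsb4 and Ugt2a3 (r = 0.938, 0.937 and 0.937), ahead of Abcg5 (r = 0.935). All genes share these 13 arrays, and the ranks describe them.

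**Figure D2:**
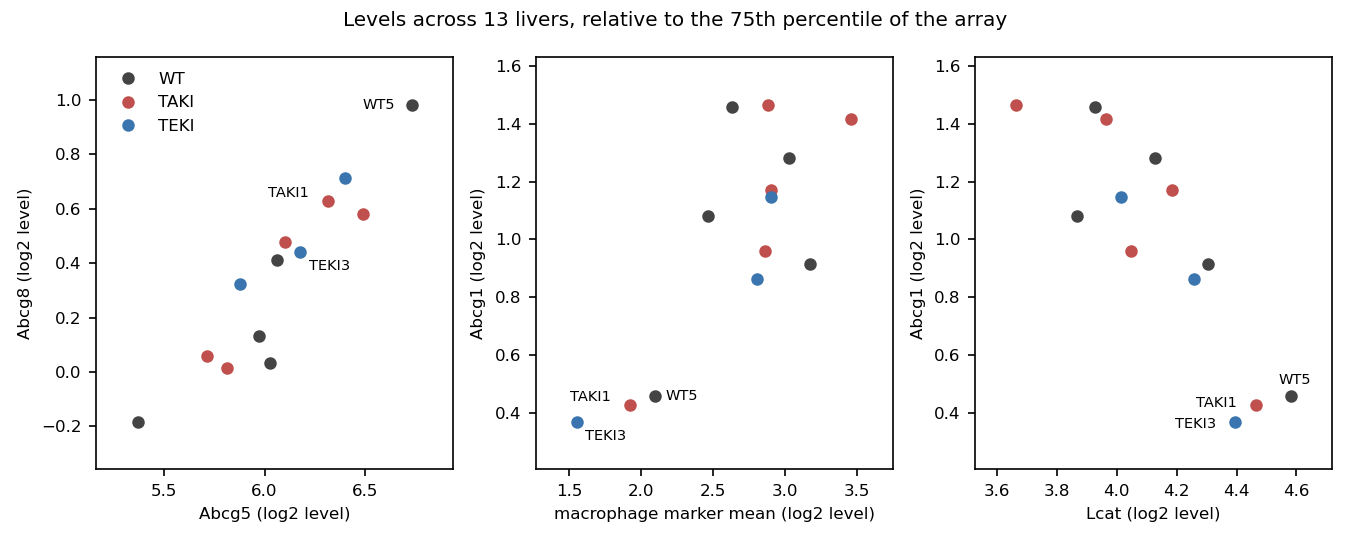
Log2 levels in the 13 livers, against each array's 75th percentile: Abcg8 against Abcg5, Abcg1 against the mean of 16 markers of macrophages and Kupffer cells, and Abcg1 against Lcat. Each point is 1 mouse, coloured by genotype, and the livers named in each panel are WT replicate 5, TAKI replicate 1 and TEKI replicate 3, which had the lowest Abcg1, between 0.37 and 0.46.

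Scarb1 and Lcat act on HDL outside the efflux step. Scarb1 encodes the receptor SR-BI, through which hepatocytes take up cholesteryl ester from HDL. Its level lay between 4.09 and 4.56 in WT livers, 4.25 and 4.65 in TAKI livers and 4.33 and 4.64 in TEKI livers (probe at chr5:124511540-124511599, minus strand). Its differences were 0.11 ± 0.12 (SE, 95% interval -0.15 to 0.37) for TAKI minus WT and 0.17 ± 0.14 (SE, -0.13 to 0.47, limma adjusted p = 0.664) for TEKI minus WT. All 3 TEKI livers were above the WT mean, and 1 of 3 was above every WT liver.

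Lcat encodes the enzyme that esterifies cholesterol on HDL and is secreted by the liver. Its level was 4.30, 3.93, 4.13, 3.87 and 4.58 in WT, 4.47, 3.96, 4.18, 3.66 and 4.05 in TAKI, and 4.26, 4.01 and 4.40 in TEKI (probe at chr8:104538812-104538871, minus strand). The livers with the most Lcat transcript were WT replicate 5, TAKI replicate 1 and TEKI replicate 3, those with the least Abcg1. The TAKI minus WT difference was -0.10 ± 0.17 (SE, 95% interval -0.47 to 0.28) and the TEKI minus WT difference 0.06 ± 0.20 (SE, -0.37 to 0.49).

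Those 3 livers also had the lowest macrophage markers and the highest hepatocyte markers. The mean log2 level of the 16 macrophage and Kupffer cell markers was 2.09 in WT replicate 5, 1.92 in TAKI replicate 1 and 1.55 in TEKI replicate 3, and at least 2.46 in the other 10 livers. On the linear scale, the summed macrophage markers ranged from 197 to 375 times the 75th percentile in WT livers. The range was 177 to 460.5 in TAKI livers and 135 to 317 in TEKI livers. The mean of the 7 hepatocyte markers was 6.74, 6.72 and 6.97 in the same 3 livers, against 6.29 to 6.59 in the others. Over all 13 livers, Abcg1 correlated with the mean of the macrophage markers, a planned pair, at r = 0.789 (permutation p = 0.0014, adjusted 0.0028) and rho = 0.604 (permutation p = 0.032, adjusted 0.063). With genotype means removed r was 0.771, and with each array centred on its median it was 0.852 (permutation p = 0.0004). Without TEKI replicate 3 and TAKI replicate 1 it was 0.558 (permutation p = 0.077), so the call rested on those livers. Over the 10 livers without the 3 lowest in Abcg1, a choice made after the values were seen and on Abcg1 itself, it was 0.136 (permutation p = 0.71). The part that cell types play in the level of Abcg1 was not tested.

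Among all 45 pairs of members, a family looked at after their values were seen, 3 passed at an adjusted p under 0.05 by Pearson's r and 2 by both measures. Beside Abcg5 with Abcg8, Abcg1 was inversely related to Lcat (r = -0.867, permutation p = 0.0001, adjusted 0.0022, and rho = -0.835, permutation p = 0.00068, adjusted 0.015). Without TAKI replicate 1 and TEKI replicate 3 it was -0.839 (permutation p = 0.002). Over the 10 livers without those with the lowest Abcg1, r was -0.696 (permutation p = 0.025). This relation depended on the scaling of the arrays: when each array was centred on its median, r was 0.0580 (permutation p = 0.85). In that setting, which shifts TEKI replicate 1 for all genes, r was above 0 for all 45 pairs. Nr1h3 varied with Lcat (r = 0.785, permutation p = 0.0014, adjusted 0.021), with rho = 0.720 (permutation p = 0.0079, adjusted 0.089). Without WT replicate 5 and TAKI replicate 4 r was 0.504 (permutation p = 0.12), and over the 10 livers without the lowest Abcg1 it was 0.640 (permutation p = 0.046). With each array centred on its median it was 0.902 (permutation p = 2e-05).

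Of the planned pairs, Abca1 with Abcg1 and Mylip with Abca1 did not pass the threshold. For Abca1 with Abcg1, which share the receptor, r was 0.153 (permutation p = 0.62, adjusted 0.77) and rho 0.121 (permutation p = 0.70, adjusted 0.73), and it was -0.163 without WT replicate 2 and TEKI replicate 1 (permutation p = 0.63). With each array centred on its median it was 0.679 (permutation p = 0.0046), and over the 10 livers without the lowest Abcg1 it was 0.647 (permutation p = 0.043). For Mylip with Abca1, r was -0.0881 (permutation p = 0.77, adjusted 0.77), rho was -0.110 (permutation p = 0.73), and r was -0.379 without TAKI replicate 4 and WT replicate 1 (permutation p = 0.25). It was 0.306 with slide means removed and 0.575 with median centring (permutation p = 0.059).

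Mylip was the member with the largest difference between TAKI and WT. It encodes IDOL, a ubiquitin ligase that LXRs induce and that sends the LDL receptor for degradation. Its level was 1.22, 1.42, 1.64, 1.74 and 1.46 in WT, 1.37, 1.85, 1.99, 2.45 and 2.10 in TAKI, and 1.59, 1.97 and 1.68 in TEKI (probe at chr13:44861360-44861419, plus strand). In TAKI, 4 of 5 livers were above every WT liver, while replicate 1 lay within the range of WT, so the groups overlapped. The difference was 0.46 ± 0.18 (SE, 95% interval 0.06 to 0.85), or 1.37-fold, with an unadjusted p of 0.0268 and an adjusted p of 0.254 in limma, so it was not called. Across the alternatives its adjusted p stayed between 0.0718 and 0.677. The TEKI minus WT difference was 0.25 ± 0.21 (SE, limma adjusted p = 0.681).

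The tested Mylip probe is in row 12 of the array, among the rows that held nearly all genes called higher in TAKI. With the median of probes of like level in rows 1 to 266 and in rows 267 to 532 removed per array, a step chosen after the data were seen, the difference was 0.55 (limma adjusted p = 0.148). A second Mylip probe, at chr13:44858383-44858442 in row 443, was well above background on 6 of 13 arrays and differed by 0.23 ± 0.20 (SE) between TAKI and WT. Between TEKI and WT the same probe differed by 0.45 ± 0.23 (SE).

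Npc1 encodes the membrane protein through which cholesterol leaves the lysosome. Its level lay between 1.36 and 1.79 in WT livers, 1.37 and 1.80 in TAKI livers and 1.42 and 1.66 in TEKI livers (probe at chr18:12540769-12540828, minus strand). The differences were -0.01 ± 0.11 (SE, 95% interval -0.25 to 0.22) for TAKI minus WT and -0.06 ± 0.12 (SE, -0.34 to 0.21) for TEKI minus WT. A second Npc1 probe was not well above background on any array and was not used.

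**Figure D3:**
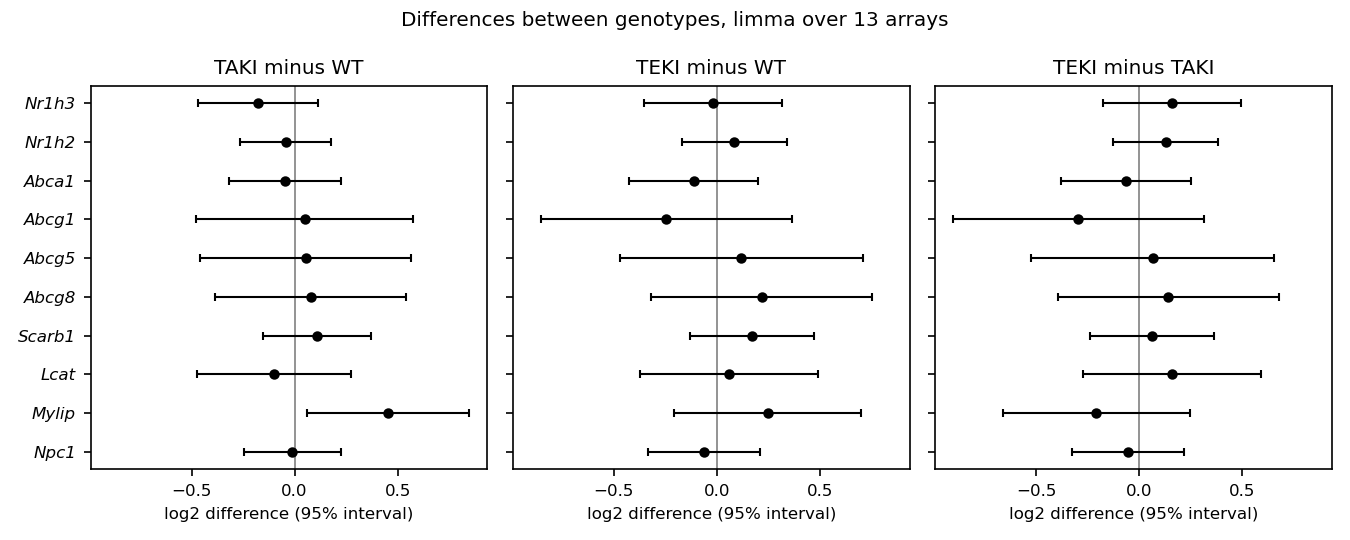
Log2 difference of each of the 10 genes in 3 comparisons, with the limma 95% interval, from 5 WT, 5 TAKI and 3 TEKI livers. The interval crosses 0 for every gene except Mylip in TAKI minus WT, where it runs from 0.06 to 0.85 before any adjustment for the number of genes.

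The knock-ins were also compared with each other. For TEKI minus TAKI the members' differences ran from -0.29 for Abcg1 to 0.16 for Nr1h3 and Lcat, with limma adjusted p between 0.731 and 0.954. Mylip differed by -0.21 ± 0.21 (SE) in this comparison and Abcg8 by 0.14 ± 0.25 (SE). By genotype mean, Mylip was highest in TAKI, then TEKI, then WT. Abcg5, Abcg8 and Scarb1 were highest in TEKI, then TAKI, then WT, and Abca1 and Npc1 ran the other way, from WT through TAKI to TEKI. Abcg1 was highest in TAKI and lowest in TEKI, Nr1h3 ran from WT through TEKI to TAKI, and Nr1h2 and Lcat from TEKI through WT to TAKI. No neighbours in these orders differed past the threshold, and several exchanged places with the scaling: centring each array on its median reversed 4 of the members' differences between TAKI and WT, 6 between TEKI and WT and 6 between the knock-ins.

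The median difference of the members was 0.02 for TAKI minus WT, 0.07 for TEKI minus WT and 0.06 for TEKI minus TAKI, beside 0.00, 0.08 and 0.07 over all genes tested. Differences were above 0 for 5, 6 and 6 of the 10 members, beside 10331, 12938 and 12460 of the 20403 genes tested. The median size of the difference, regardless of sign, was 0.0653, 0.116 and 0.135, beside 0.129, 0.127 and 0.139 over the 15510 genes above background on all arrays.

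Within the slide that held both TEKI and a WT liver, several differences had another sign. TEKI minus WT replicate 5 was -0.58 for Abcg5, -0.49 for Abcg8, -0.36 for Lcat, 0.34 for Abcg1 and 0.02 for Abca1, opposite to the comparison with all WT livers. It was -0.37 for Nr1h3, -0.14 for Npc1, 0.11 for Nr1h2, 0.26 for Scarb1 and 0.28 for Mylip, with the same signs. WT replicate 5 was the highest WT liver for Nr1h3, Abcg5, Abcg8 and Lcat and the lowest for Abcg1, and this comparison rests on that single liver.

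The rest of the pathway was read from 5 lists of 72 genes, of which 71 were tested, and 0 of these were called in any comparison. Among 19 LXR targets beyond the members, the median difference was -0.07 for TAKI minus WT and 0.05 for TEKI minus WT. In this list 6 and 12 genes were above 0, beside 10331 and 12938 of the 20403 genes tested. Abcg4, a relative of Abcg1, differed by 1.07 (limma adjusted p = 0.216) and 1.05 (limma adjusted p = 0.425), at levels from -7.10 to -4.23, far down the range of the arrays. With normexp background correction its TAKI minus WT difference was -0.00045. Apoc1, an apolipoprotein of HDL and VLDL, differed by -0.36 for TAKI minus WT (limma adjusted p = 0.302). Scd1, the desaturase that makes oleate, differed by 0.26 for TEKI minus WT (limma adjusted p = 0.536) and by 0.39 for TEKI minus TAKI (limma adjusted p = 0.349).

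The list of 16 retinoid X receptors and coregulators held the smallest adjusted p of the pathway. Ncoa6 is a coactivator of nuclear receptors, LXR among them, and its probe lies in row 420. Its level was 2.59, 2.85, 2.90, 2.74 and 2.69 in WT, 2.54, 2.55, 2.30, 2.45 and 2.31 in TAKI, and 2.39, 2.50 and 2.54 in TEKI. Every TAKI and TEKI liver lay below every WT liver, and full separation from WT held for 7.39% (TAKI) and 3.66% (TEKI) of all genes. The difference was -0.32 ± 0.09 (SE, limma adjusted p = 0.0888) for TAKI minus WT and -0.28 (limma adjusted p = 0.397) for TEKI minus WT, so neither was called. With array weights the first of these was -0.38 (limma adjusted p = 0.0108), and with the array rows corrected, as for Mylip, it was -0.30 (limma adjusted p = 0.109). Array weights called 2228 of the 20403 genes for TAKI minus WT, against 565 in the main fit. Rxrb, one of the LXR partners, differed by -0.29 for TAKI minus WT (limma adjusted p = 0.221) and by -0.35 with array weights (limma adjusted p = 0.0341), but by -0.20 with the array rows corrected (limma adjusted p = 0.296). For TEKI minus TAKI it differed by 0.31 (limma adjusted p = 0.320), with levels of 1.73 to 2.22 in TAKI and 2.26 to 2.43 in TEKI. Of all genes, 8.23% separated the knock-ins fully. Ncoa3, another coactivator, differed by -0.22 for TEKI minus WT (limma adjusted p = 0.437), and Rxrg by 0.25 for TEKI minus TAKI (limma adjusted p = 0.584). The list medians were -0.05 for TAKI minus WT, -0.03 for TEKI minus WT and 0.00 for TEKI minus TAKI.

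In the list of 8 oxysterol enzymes, which make or remove the LXR ligands, the medians were -0.12 for TAKI minus WT, 0.12 for TEKI minus WT and 0.31 for TEKI minus TAKI. In the last of these 7 of 8 genes were above 0, as were 12460 of the 20403 genes tested. Cyp27a1, the mitochondrial sterol hydroxylase, differed by -0.17 for TAKI minus WT (limma adjusted p = 0.821), and Cyp46a1, the cholesterol hydroxylase of neurons, by 0.69 for TEKI minus WT (limma adjusted p = 0.516). Sult2b1, which sulfates sterols, differed by 1.15 for TEKI minus WT and 1.24 for TEKI minus TAKI (limma adjusted p = 0.489 and 0.483). Its level was -1.90 in TEKI replicate 1, the array with the most probes above background, and -4.93 and -4.41 in the other TEKI livers. With normexp background correction the TEKI minus TAKI difference was 1.09 (limma adjusted p = 0.0126), in a setting that called 4138 genes for this comparison.

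For 10 genes of HDL particles the medians were -0.07 between TAKI and WT, 0.15 between TEKI and WT and 0.21 between the knock-ins. In TEKI minus WT and in TEKI minus TAKI 9 of 10 were above 0, as were 12938 and 12460 of the 20403 genes tested. Apoc3, an inhibitor of lipoprotein lipase, differed by 0.20 (limma adjusted p = 0.574) and 0.25 (limma adjusted p = 0.539) for TAKI and TEKI minus WT. Apoe, a ligand of the LDL receptor, differed by -0.19 for TAKI minus WT (limma adjusted p = 0.615) and 0.23 for TEKI minus TAKI (limma adjusted p = 0.630). Apoa2, a structural protein of HDL, differed by 0.22 for TEKI minus TAKI (limma adjusted p = 0.604), and the endothelial lipase Lipg by 0.43 for TEKI minus WT (limma adjusted p = 0.663).

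Of 21 genes of sterol transport and storage inside cells, 20 were tested, with medians of -0.06, -0.07 and -0.02. Gramd1a, which carries cholesterol from the plasma membrane to the endoplasmic reticulum, differed by -0.18 for TAKI minus WT (limma adjusted p = 0.302). Stard4, a soluble sterol carrier, differed by -0.40 for TAKI minus WT (limma adjusted p = 0.395) and 0.30 for TEKI minus TAKI (limma adjusted p = 0.674). Soat2, which esterifies cholesterol for storage, differed by 0.40 for TEKI minus TAKI (limma adjusted p = 0.400). Cav1, the coat protein of caveolae, differed by 0.33 for TEKI minus WT (limma adjusted p = 0.450), with WT levels of -1.43 to -0.72 and TEKI levels of -0.71 to -0.49. Of all genes, 3.66% separated TEKI from WT fully. Nceh1, a hydrolase of cholesteryl ester, differed by -0.23 in that comparison (limma adjusted p = 0.549).

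**Figure D4:**
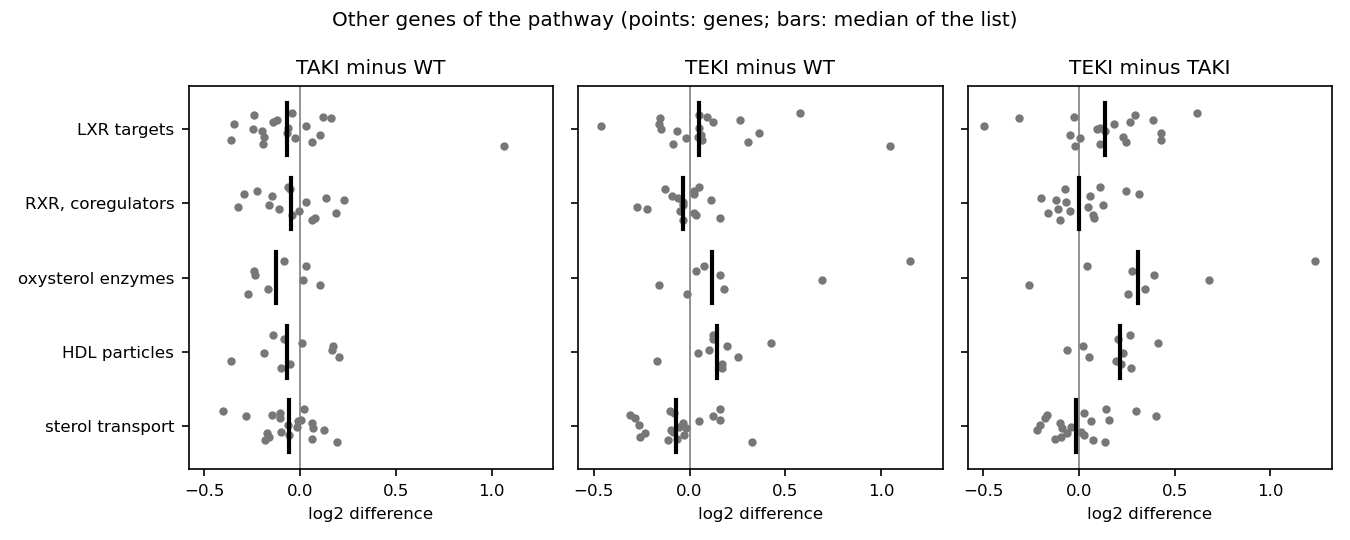
Log2 differences of the other genes of the pathway in 3 comparisons, by list: 19 LXR targets, 16 retinoid X receptors and coregulators, 8 oxysterol enzymes, 10 genes of HDL particles and 20 genes of intracellular sterol transport. Each point is 1 gene and each bar the median of its list, and none of the genes was called.

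By likeness of deviations from the genotype means over the 13 arrays, each efflux gene had its own neighbours among 13238 genes. For Abca1 they were Sec23ip, a protein of export from the endoplasmic reticulum (r = 0.935), Sorbs2 (r = 0.899) and Zbtb1 (r = 0.898). For Abcg1 they were Ifi203, an interferon-inducible gene (r = 0.976), Cttnbp2nl (r = 0.974) and Ehd4, a protein of endosomes (r = 0.960). Nr1h3 was followed by Atp5j, a subunit of ATP synthase (r = 0.960), 2510002D24Rik (r = 0.954) and Azgp1 (r = 0.947). Scarb1 had lower values, with Csnk1d, Gas8 and Aagab at r = 0.857, 0.829 and 0.808.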

How the data were processed

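Liver RNA of 13 mice (5 WT, 5 TAKI, 3 TEKI) was measured on Agilent 1-colour arrays. Per the labels' protocols, RNA was column-purified with DNase and 500 ng was labelled with Cy3. Feature Extraction 9.5 made the files, per the submitters' processing notes (9.5.3.1 per the file headers). Per the file headers, these deposited files give a processed intensity for every spot, after background subtraction and detrending inside each array. Arrays were not scaled to each other. The submitters' value table matched them (largest absolute difference 0), so it is linear, not centred and not a ratio.

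Log2 intensities were set against each array's 75th percentile. Spots of a probe were averaged. Per gene, the probe of highest mean that was well above background on at least 3 arrays was tested. All 13 arrays entered 1 model of genotype in limma 3.58.1 (R 4.3.3), with Benjamini-Hochberg adjustment over 20403 genes. The fit was tested on simulated data. The number of arrays limits the precision. The design text counts mice, so replicates are animals. Correlations used 100000 permutations (2-sided, Python 3.11.15, numpy 2.4.6, scipy 1.17.1). Promoter sequence came from RefSeq (GRCm38.p6), with windows for 7 of the 10 members. Probe coordinates are those of the file (mm7), and gene parts were not annotated.

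Every member and probe is named. From each pathway list, called genes and the 2 of smallest p per comparison are named, and for 6 members the 3 genes of most alike deviations. A result that this rule would name is not reported here. Members, lists and the planned pairs were chosen with earlier results of these data known. Cd36, which the table lists as an older synonym of Scarb1, is another gene's symbol and was not taken. Alternatives were other scalings, background correction, filters, probe rules, weights, slide and replicate blocks, and leaving out each array.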

Additional observations from a re-analysis of the deposited data

How the results depend on the processing

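No member was called in any comparison under any alternative, and 782 of the 860 alternative values of the members kept their direction. The smallest adjusted p of a member was 0.0718 for TAKI minus WT, 0.315 for TEKI minus WT and 0.181 for TEKI minus TAKI. The reversals below are of differences that were not called. Scaling moved the median of all genes: it was -0.15 for TAKI minus WT and -0.33 for TEKI minus WT with median centring, and 0.22 for TAKI minus WT in the deposited table without scaling. For the values that changed below, the cause was not tested.

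With median centring, TAKI minus WT was -0.11 for Abcg1, -0.10 for Abcg5, -0.080 for Abcg8 and -0.049 for Scarb1, and 969 genes were called. TEKI minus WT was -0.33 for Nr1h2, -0.29 for Abcg5, -0.19 for Abcg8, -0.24 for Scarb1, -0.16 for Mylip, -0.35 for Lcat, -0.16 for Apoc3, -0.085 for Cav1 and -0.15 for Scd1, with 2 genes called. TEKI minus TAKI was -0.095 for Nr1h3, -0.13 for Nr1h2, -0.19 for Abcg5, -0.11 for Abcg8, -0.19 for Scarb1, -0.095 for Lcat, -0.032 for Apoa2, -0.023 for Apoe and -0.0066 for Rxrg. The correlations were 0.679 for Abca1 with Abcg1, 0.575 for Mylip with Abca1 and 0.0580 for Abcg1 with Lcat.

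In the deposited table without scaling, TAKI minus WT was 0.037 for Nr1h3, 0.17 for Nr1h2, 0.17 for Abca1, 0.20 for Npc1, 0.12 for Lcat, 0.027 for Apoe, 0.047 for Cyp27a1 and 0.033 for Gramd1a, with 1016 genes called. TEKI minus TAKI was -0.11 for Nr1h3, -0.15 for Nr1h2, -0.21 for Abcg5, -0.13 for Abcg8, -0.21 for Scarb1, -0.11 for Lcat, -0.051 for Apoa2, -0.043 for Apoe and -0.026 for Rxrg. With quantile normalization, TAKI minus WT was 0.0038 for Abca1, 0.018 for Npc1 and 0.034 for Apoe. TEKI minus WT was -0.33 for Lipg, and TEKI minus TAKI was -0.018 for Abcg5, -0.00025 for Scarb1 and -0.030 for Apoe. The genes called were 881, 5 and 1132. With normexp, TAKI minus WT was 0.089 for Abca1 and -0.00045 for Abcg4. In that setting 0 genes were called for TEKI minus WT and 4138 for TEKI minus TAKI, where 1 pathway gene, Sult2b1, was called.

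With the slide as a fixed block, and equally within the slide of both WT and TEKI, TEKI minus WT was 0.020 for Abca1, 0.34 for Abcg1, -0.58 for Abcg5, -0.49 for Abcg8, -0.36 for Lcat, -0.13 for Abcg4, -0.11 for Apoc3 and -0.30 for Cyp46a1, with 0 genes called by limma. With array weights TAKI minus WT was -0.014 for Abcg1 and 0.043 for Npc1, and TEKI minus WT was 0.055 for Nr1h3. They gave 2228 called genes for TAKI minus WT, 2 of them in the pathway (Ncoa6 and Rxrb), and 2 for TEKI minus WT. With the array rows corrected, TAKI minus WT was 0.015 for Npc1 and TEKI minus WT was -0.29 for Lipg, with 4 genes called in the latter. The mean of all probes gave 0.0075 for Mylip in TEKI minus TAKI, and single probes called 1 pathway gene there, Ncoa2, by 1.61 (limma adjusted p = 0.0147). That was another probe than the Ncoa2 probe of the main fit, which differed by -0.045 in this comparison (limma adjusted p = 0.935). Genes above background on all arrays gave 238, 0 and 295 calls, no filter gave 2 for TEKI minus WT, and only the 2 groups compared gave 1323 for TAKI minus WT.

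Without the 2 arrays farthest from the median, r was -0.163 for Abca1 with Abcg1, 0.558 for Abcg1 with the macrophage markers and 0.504 for Nr1h3 with Lcat. Without the 3 livers of lowest Abcg1 it was 0.647 for Abca1 with Abcg1 and 0.136 for Abcg1 with the macrophage markers. With slide means removed it was 0.306 for Mylip with Abca1.

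Leaving out 1 array at a time, TAKI minus WT ranged from -0.098 to 0.014 for Nr1h2, -0.10 to 0.033 for Abca1, -0.095 to 0.22 for Abcg1, -0.11 to 0.23 for Abcg5, -0.037 to 0.25 for Abcg8, -0.076 to 0.052 for Npc1 and -0.20 to 0.0069 for Lcat. TEKI minus WT ranged from -0.10 to 0.069 for Nr1h3, -0.048 to 0.295 for Abcg5, -0.13 to 0.0087 for Npc1 and -0.026 to 0.17 for Lcat. TEKI minus TAKI ranged from -0.18 to 0.038 for Abca1, -0.058 to 0.20 for Abcg5, -0.020 to 0.14 for Scarb1 and -0.12 to 0.019 for Npc1. The genes called ranged from 287 to 1299 for TAKI minus WT, 1 to 100 for TEKI minus WT and 390 to 1070 for TEKI minus TAKI. For TAKI minus WT there were 351 without WT replicate 2, 341, 370 and 287 without TAKI replicates 3, 4 and 5, and 1299 without TEKI replicate 1. For TEKI minus WT there were 18 without WT replicate 5, and 3, 100 and 4 without TEKI replicates 1, 2 and 3. For TEKI minus TAKI there were 1070 without TEKI replicate 1 and 390 without TEKI replicate 3.

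Groups share replicate numbers, and same-numbered arrays correlated at -0.23 to 0.32 in their deviations, not always above 0.1. Arrays of different numbers were not set beside them, so this cannot tell whether the numbers mark a pairing. With the replicate number as a block, 340 genes were called for TAKI minus WT, 0 for TEKI minus WT and 594 for TEKI minus TAKI, with 0 members in each. Scarb1 was then at -0.0077 for TEKI minus TAKI.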
